A study of Rattus norvegicus with 12 samples.

Results

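Rln3 encodes relaxin 3, a secreted peptide of the relaxin family, and it lies in the rat genome between Il27ra, which encodes the alpha chain of the interleukin-27 receptor, and Rfx1, which encodes a transcription factor of the RFX family. These 3 genes were chosen by their FPKM (a fragment count scaled to transcript length and library size), which was higher in adult rat ventricular myocytes carrying an NR4A2 adenovirus than in control cells, so their difference between the groups is given as a description and not tested. The relaxin receptor genes Rxfp1, Rxfp2, Rxfp3 and Rxfp4 were added as a family, whatever their values. Of these 7 genes, 6 were found among 17301 gene names, each with 1 transcript, and Rxfp4, which RefSeq annotates as a pseudogene in the rat, was not analysed here.

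Adult rat ventricular myocytes (ARVMs) were isolated from Sprague Dawley hearts, plated and transduced at a multiplicity of infection of 50 with Ad-h-NR4A2, an adenovirus that carries the human NR4A2 cDNA behind a CMV promoter, or with Ad-GFP, an adenovirus that carries green fluorescent protein. RNA was taken 48 h later. Each group held 6 samples, numbered 24 to 29 in both, and each sample is named here by its group and number. NR4A2 is an orphan nuclear receptor that acts as a transcription factor, and the comparison asks which transcripts differ when ARVMs carry an excess of it.

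Relaxin-family peptides act on G protein-coupled receptors. Relaxin 3 is best known as a neuropeptide of the brainstem, its cognate receptor is RXFP3, and it can also activate RXFP1, the receptor of circulating relaxin, which raises cyclic AMP and is studied in the heart for its vasodilator and antifibrotic actions, while RXFP2 is the receptor of insulin-like peptide 3. The interleukin-27 receptor chain pairs with gp130, the product of Il6st, and signals through JAK kinases and STAT3, mainly in lymphocytes. RFX proteins bind X-box sequences, and several of them drive genes of the cilium.

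In the deposited coordinates (build Rn5, chromosome 19), the Il27ra transcript ran from 36128873 to 36140835, the Rln3 transcript from 36141375 to 36143406 and the Rfx1 transcript from 36158698 to 36189544. The gap between Il27ra and Rln3 was 539 bases and that between Rln3 and Rfx1 was 15291 bases. RefSeq promoter sequences (build GRCr8) were matched for 4 of the 6 genes. Rln3 and Rxfp1 had no entry, so their promoters were not searched for motifs. The 250 bases before the starts of the genes on either side of Rln3 are shown because both starts face the interval that holds Rln3. In GRCr8, Il27ra is on the plus strand (chr19:41014480-41014729) and Rfx1 on the minus strand (chr19:40996810-40997059), so that they are transcribed away from each other. Their order along the chromosome in GRCr8 is the reverse of that in Rn5, so these strands apply to GRCr8 only. Capitals mark the single match to GTTGCC, a part of the X-box that RFX proteins bind. Only this part was searched for, not the whole X-box.
Il27ra: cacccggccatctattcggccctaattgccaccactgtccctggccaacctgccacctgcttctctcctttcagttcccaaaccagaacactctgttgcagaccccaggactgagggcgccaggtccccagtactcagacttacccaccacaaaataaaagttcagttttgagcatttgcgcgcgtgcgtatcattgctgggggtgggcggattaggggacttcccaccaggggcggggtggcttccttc
Rfx1: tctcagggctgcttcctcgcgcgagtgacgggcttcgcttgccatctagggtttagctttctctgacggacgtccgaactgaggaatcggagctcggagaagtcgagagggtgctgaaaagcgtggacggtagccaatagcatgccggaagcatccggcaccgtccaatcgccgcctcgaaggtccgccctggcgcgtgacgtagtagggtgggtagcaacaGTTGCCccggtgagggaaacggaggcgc

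The GTTGCC of Rfx1, the gene of an RFX protein, began 28 bases before its start, and 9.89% of 33469 promoters of this length held this motif on either strand. AAAGGTCA, the site that NR4A proteins bind as monomers, was found in 1.24% of those promoters on either strand. Its shorter core AGGTCA, which is part of AAAGGTCA, was found in 14.1%. Neither was found in the windows of Il27ra, Rfx1, Rxfp2 or Rxfp3, which says only that these letters were not in those bases. GC content was 57.6% in the Il27ra window and 62.0% in the Rfx1 window.

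Nr4a2 served as the check of the labels. Its FPKM lay between 0.626 and 1.40 in the Ad-GFP samples (median 0.787) and between 445 and 592 in the Ad-h-NR4A2 samples (median 533), so every label fitted its group. The mean was 0.884 ± 0.309 (SD, n = 6) in Ad-GFP and 524 ± 70.3 (SD, n = 6) in Ad-h-NR4A2, a ratio of 593. The log2 fold change of FPKM + 0.1 was 9.10 ± 0.17 (SE) with an adjusted p of 6.59e-13 (limma, Benjamini-Hochberg over 10950 genes). The transgene is human and the FPKM are of rat transcripts, so fragments of the transgene and of the rat gene cannot be told apart here. From the steps of the low FPKM values, the samples held 18800000 to 28000000 fragments. At those depths 3 fragments, the floor used below, corresponded to 0.347 to 0.525 FPKM for the short Rln3 transcript of 470 bases.

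Rln3 was scarce and uneven in the control cells and among the most abundant transcripts of the Ad-h-NR4A2 cells. Its FPKM in Ad-GFP samples 24 to 29 were 0.147, 1.40, 0.149, 0.257, 9.18 and 2.19. These values came from 1, 8, 1, 2, 77 and 19 fragments, and samples 24, 26 and 27 were below the floor of 3. In Ad-h-NR4A2 samples 24 to 29 the FPKM were 4089.9, 7757, 7603, 8875, 5761 and 7451. These came from 27411 to 65838 fragments per sample, so that this single peptide gene took between 0.127% and 0.273% of all fragments. By mean FPKM, Rln3 moved from rank 8226 to rank 6 of the 17301 gene names.

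The lowest Ad-h-NR4A2 sample for Rln3 was far above the highest Ad-GFP sample. The mean was 2.22 ± 3.51 FPKM (SD, n = 6) in Ad-GFP and 6923 ± 1710.1 FPKM (SD, n = 6) in Ad-h-NR4A2, a ratio of 3117. The log2 fold change of FPKM + 0.1, a difference of mean log2 values, was 12.80 ± 0.76 (SE). A single high control value weighs less on this difference than on the ratio of means. Ad-GFP 28 decided the control mean, because without it the mean was 0.829 ± 0.928 FPKM (SD, n = 5), the means differed 8346-fold and the log2 difference was 13.46. That sample was not unusual in the genes on either side, with the lowest Il27ra (0.644 FPKM) and the highest Rfx1 (2.79 FPKM) of its group, both near the other controls. It did have the highest Nr4a2 of its group, 1.40 FPKM.

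Il27ra was low and even in the controls and at a middle level in Ad-h-NR4A2. Its FPKM ran from 0.644 to 0.864 (median 0.726) in Ad-GFP and from 33.7 to 64.8 (median 47.3) in Ad-h-NR4A2. The groups did not overlap, and every control sample held at least 33 fragments, so the control level was above the floor throughout. The mean was 0.736 ± 0.0743 FPKM (SD, n = 6) against 47.4 ± 10.1 FPKM (SD, n = 6), a ratio of 64.4, and the log2 fold change was 5.81 ± 0.13 (SE). Ad-h-NR4A2 27 was the highest sample and Ad-h-NR4A2 28 the lowest.

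Rfx1 was present in all controls and differed by the smallest factor of the 3 genes. Its FPKM ran from 1.93 to 2.79 (median 2.28) in Ad-GFP, from 145 to 304 fragments, and from 17.1 to 42.3 (median 28.1) in Ad-h-NR4A2, from 1469 to 3791 fragments. The groups again did not overlap. The mean was 2.33 ± 0.320 FPKM (SD, n = 6) against 30.1 ± 10.2 FPKM (SD, n = 6), a ratio of 12.9, and the log2 fold change was 3.57 ± 0.20 (SE). Across all genes tested, 21.5% had groups that did not overlap, a share from which nothing is read for these 3 genes, since the same contrast chose them.

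**Figure D1:**
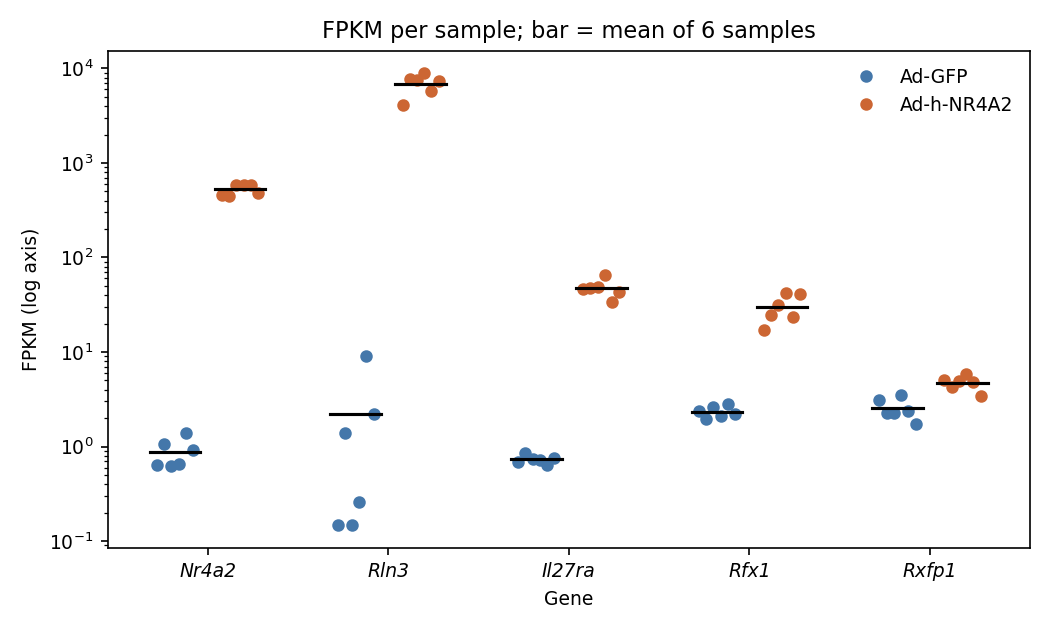
FPKM on a log axis of Nr4a2, Rln3, Il27ra, Rfx1 and Rxfp1 in each Ad-GFP (blue) and Ad-h-NR4A2 (orange) sample, in order of sample number, with a bar at the mean of 6 samples. Rln3 in Ad-GFP is spread from 0.147 to 9.18 FPKM, and Rxfp1 is the gene whose groups overlap.

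Of the receptors, Rxfp1, which binds relaxin and also responds to relaxin 3, was the member with a measurable level in these cells, and it rose modestly with Ad-h-NR4A2. Its transcript lies on chromosome 2 from 197738113 to 197930308 (Rn5). Its FPKM were 3.09, 2.24, 2.29, 3.49, 2.36 and 1.74 in Ad-GFP samples 24 to 29 and 5.11, 4.31, 4.95, 5.85, 4.82 and 3.39 in Ad-h-NR4A2 samples 24 to 29. The groups overlapped slightly, since the highest control (number 27) was above the lowest Ad-h-NR4A2 sample (number 29), but the value was higher in Ad-h-NR4A2 in 6 of 6 same-numbered pairs.

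The mean of Rxfp1 was 2.53 ± 0.637 FPKM (SD, n = 6) in Ad-GFP and 4.74 ± 0.826 FPKM (SD, n = 6) in Ad-h-NR4A2, a ratio of 1.87. The log2 fold change was 0.89 ± 0.16 (SE), with an adjusted p of 0.000689 (limma, Benjamini-Hochberg over all genes tested). A two-sided exact permutation test that ignored the sample numbers gave p = 0.00433. The smallest p that 6 against 6 allows without pairing is 0.00216. A gene is called here when its adjusted p is below 0.05 and its mean FPKM differ at least 1.5-fold. By that rule 869 of 10950 genes (7.94%) were called higher in Ad-h-NR4A2, and Rxfp1 was 1 of them. It rested on 89 to 187 fragments per control and 165 to 270 per Ad-h-NR4A2 sample.

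Rxfp3, the cognate receptor of relaxin 3, was at or under the floor in every sample. It was listed at 0 in 11 samples and at 0.0361 FPKM, a single fragment, in Ad-h-NR4A2 27. A count of 0 allows up to 3 fragments, which for its transcript of 1431 bases (chromosome 2, 83676999 to 83678429, Rn5) corresponded to 0.0844 to 0.126 FPKM. Expression below that limit was not detectable at this depth in either group, and no fold is given.

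Rxfp2 was also at or under the floor. It was listed at 0 in 10 samples, and a single fragment gave 0.0179 FPKM in Ad-GFP 28 and 0.0223 FPKM in Ad-h-NR4A2 27. For its transcript of 2214 bases (chromosome 12, 8119972 to 8181214, Rn5), 3 fragments corresponded to 0.0522 to 0.0779 FPKM. The other relaxin-family peptides were as low: Rln1 had 1 fragment in 1 sample, Insl3 had at most 3 fragments in 2 samples, and Insl6, a testis peptide, had at most 1 fragment in 6 samples. Insl5 was not analysed here. Among the 4 peptide genes listed, Rln3 alone passed the filter for testing.

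Taken by same-numbered pair, the 4 measurable members differed in how even their ratios were. The Rln3 ratio ran from 628 (number 28) to 51030 (number 26), and its log2 values had an SD of 2.45. For numbers 24 and 26 the ratio rested on a single control fragment. For number 24, for example, the ratio of 27814 had a 95% counting interval of 4992 to 1098650.

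The other genes were more even across the pairs. The Il27ra ratio ran from 52.4 to 90.9 with a median of 60.8, and the SD of its log2 values was 0.29. The Rfx1 ratio ran from 7.18 to 20.0 with a median of 12.4 (SD 0.60 on the log2 scale), and the Rxfp1 ratio from 1.65 to 2.16 with a median of 1.94 (SD 0.16). For Nr4a2 itself the SD was 0.53. All intervals on fragments cover counting error only.

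**Figure D2:**
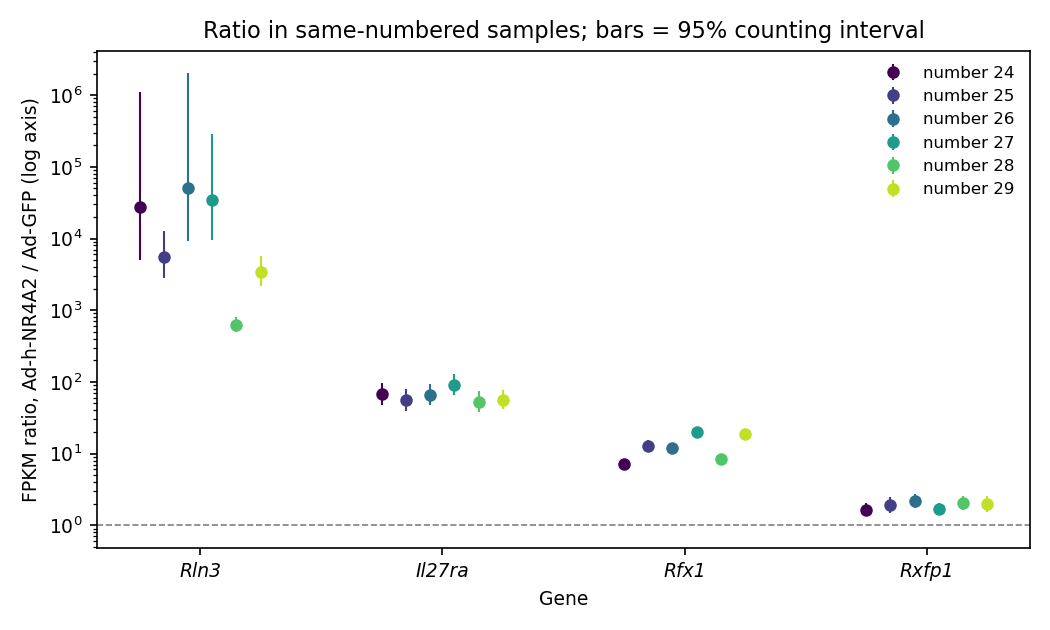
Ratio of FPKM, Ad-h-NR4A2 over Ad-GFP, in each of the 6 same-numbered pairs for Rln3, Il27ra, Rfx1 and Rxfp1 on a log axis, with 95% counting intervals and a dashed line at a ratio of 1. The Rln3 ratios run from 628 to 51030 and the Rxfp1 ratios from 1.65 to 2.16.

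The order of the levels changed between the groups. By mean FPKM in Ad-GFP the order was Rxfp1, Rfx1, Rln3, Nr4a2 and Il27ra, and the ranges of all neighbours in that order overlapped. In Ad-h-NR4A2 it was Rln3, Nr4a2, Il27ra, Rfx1 and Rxfp1, and the ranges of Il27ra and Rfx1 were the only neighbouring ranges that overlapped. Il27ra was nevertheless above Rfx1 in 6 of 6 Ad-h-NR4A2 samples.

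Within single samples, the ratio of the FPKM of Rln3 to that of Il27ra was 0.201 to 14.2 in Ad-GFP and 87.8 to 174 (median 159) in Ad-h-NR4A2. The Rln3 to Rfx1 ratio was 180 to 311 (median 241) in Ad-h-NR4A2. The Il27ra to Rfx1 ratio was 0.231 to 0.447 in Ad-GFP and 1.03 to 2.73 in Ad-h-NR4A2. The level of Il27ra was thus below that of Rfx1 in every control and above it in every Ad-h-NR4A2 sample. In the controls the group ranges already fix that order, whereas in Ad-h-NR4A2 the ranges overlap and the order is read within each sample.

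Variation within a group was not used to choose the genes, so the relations of Nr4a2, Rln3, Il27ra and Rfx1 were examined among the 6 samples of each group, 12 relations in all, on log2(FPKM + 0.1). None passed after adjustment. In Ad-GFP, Nr4a2 and Rln3 had Pearson's r of 0.971 (exact permutation p = 0.0111, adjusted p = 0.133) and Spearman's rho of 0.886 (exact permutation p = 0.0333, adjusted p = 0.400). Without numbers 25 and 28, the farthest from the median, r over the other 4 samples was 0.996. That value rested on number 29, with 19 Rln3 fragments and 0.919 FPKM of Nr4a2. Numbers 24, 26 and 27 were below the floor of 3 fragments and close together in Nr4a2. The Ad-GFP samples with the least Nr4a2 (numbers 24, 26 and 27, at 0.626 to 0.655 FPKM) were those with 1 or 2 Rln3 fragments. Ad-h-NR4A2 samples, sequenced in the same pool, each held 27411 to 65838 Rln3 fragments and 23615 to 36153 Nr4a2 fragments. The source of the few control fragments was not tested.

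In Ad-h-NR4A2, Rln3 and Rfx1 had r of 0.859 (exact permutation p = 0.0250, adjusted p = 0.150) and rho of 0.771 (exact permutation p = 0.103, adjusted p = 0.408). That relation rested on numbers 24 and 28, the samples with the least Rln3, since r over the other 4 samples was 0.384. Nr4a2 and Rln3 in this group had r of 0.375 (exact permutation p = 0.490, adjusted p = 0.840) and rho of 0.371 (exact permutation p = 0.497, adjusted p = 0.746), and r over 4 samples was 0.0185 without numbers 24 and 25. In Ad-GFP, Il27ra and Rfx1 had r of -0.787 (exact permutation p = 0.0611, adjusted p = 0.244) and rho of -0.714 (exact permutation p = 0.136, adjusted p = 0.408), and r was 0.0288 without numbers 25 and 28. The other 8 relations had r between -0.130 and 0.477 and adjusted p between 0.758 and 0.943 for r.

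Among 8977 genes with a mean of at least 1 FPKM, the 5 whose log2 levels were most like Rln3 over the 6 Ad-h-NR4A2 samples were Med30, a Mediator subunit, with r of 0.996, Slc36a4, an amino acid transporter, with 0.990, the annexin Anxa4 and the phosphatase subunit Ppp2r3c with 0.988 each, and Dbndd2 with 0.986. Slc36a4 was the only gene of these that was called, at 1.53 ± 0.179 FPKM against 2.45 ± 0.332 FPKM (SD, n = 6, adjusted p = 0.000442, limma). On the same scale Rfx1 had rank 315, Il27ra rank 1853, Nr4a2 rank 2258 and Rxfp1 rank 4036. With 6 samples and 8977 genes such values are a description, and library depth and quality are shared by all points.

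Beyond Il27ra and Rfx1, genes within 500 kb of Rln3 were called at a share near that of all genes. Their changes were small beside those of Rln3, Il27ra and Rfx1. Within 500 kb there were 27 other gene names, of which 18 were tested. Of these, 1 was called higher and 2 lower, or 16.7%, beside 15.2% of all genes tested (1662 of 10950), 7.94% higher and 7.24% lower. The median log2 fold change was 0.01 for the window and -0.02 for all genes. Within 100 kb, 2 of 6 tested genes were called (33.3%), 1 in each direction, with a median of -0.13. Asf1b, a histone chaperone 70.9 kb away, fell from 0.883 ± 0.204 to 0.312 ± 0.142 FPKM (SD, n = 6, log2 fold change -1.29 ± 0.22 (SE), adjusted p = 0.000409, limma). Farther out, at 287.5 kb, Adgre5, the adhesion receptor CD97, fell from 2.84 ± 0.586 to 1.62 ± 0.313 FPKM (SD, n = 6, log2 fold change -0.77 ± 0.16 (SE), adjusted p = 0.00145, limma).

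The gene called higher, RGD1310262, lay 30.4 kb from Rln3 and rose from 0.337 ± 0.0727 to 0.595 ± 0.120 FPKM (SD, n = 6, log2 fold change 0.67 ± 0.15 (SE), adjusted p = 0.00236, limma), on at most 17 fragments. With genes of at least 1 FPKM alone, Asf1b and RGD1310262 left the test and 1 of 15 was called. Prkaca, the catalytic subunit of protein kinase A, 44.5 kb away, was at 163 ± 9.58 against 133 ± 6.44 FPKM (SD, n = 6, adjusted p = 0.000214, limma), a difference under 1.5-fold. The nearest tested gene beyond Rfx1 was Dcaf15, a ubiquitin ligase substrate receptor 46.2 kb away, whose log2 fold change was 0.00 ± 0.09 (SE, adjusted p = 0.975 by limma). Cc2d1a at 80.6 kb had 0.14 ± 0.07 (SE, adjusted p = 0.107) and Adgrl1 at 94.1 kb had -0.27 ± 0.22 (SE, adjusted p = 0.370). Mir1199, whose listed coordinates are those of RGD1310262, was listed at 0 in all 12 samples.

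**Figure D3:**
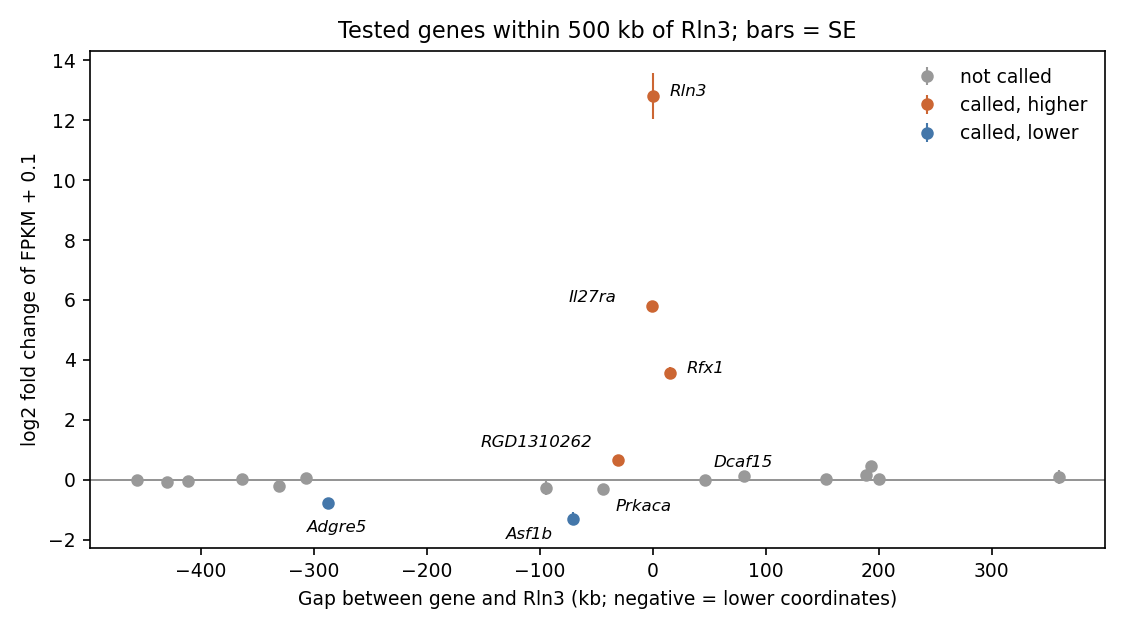
Log2 fold change of FPKM + 0.1 (Ad-h-NR4A2 minus Ad-GFP) with its SE for the tested genes within 500 kb of Rln3, against the gap to Rln3 in kb, with called genes in colour. Rln3, Il27ra and Rfx1 stand at 12.80, 5.81 and 3.57, while the other 18 genes lie between -1.29 and 0.67.

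Genes of the signalling that follows relaxin receptors were taken as a list of 85, of which 73 could be tested. Of these, 8 rose and 1 fell, or 12.3% beside 15.2% of all genes tested, and the median log2 fold change was -0.07. The largest of these changes was that of Pik3r3, which encodes a regulatory subunit of PI 3-kinase, from 5.96 ± 0.601 to 67.1 ± 12.7 FPKM (SD, n = 6, log2 fold change 3.46, adjusted p = 1.21e-10, limma). Adcy6, a main adenylyl cyclase of cardiomyocytes, which makes the cyclic AMP that RXFP1 raises, went from 17.6 ± 4.77 to 56.7 ± 4.76 FPKM (log2 fold change 1.72, adjusted p = 1.13e-06). It was the only cyclase gene of the list that was called. Adcy5, another cyclase gene, went the other way, from 67.0 ± 3.18 to 49.4 ± 2.71 FPKM (SD, n = 6). Its log2 fold change was -0.44 (adjusted p = 5.58e-06, limma), which is under 1.5-fold.

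The other called genes of the list had smaller changes. The phospholipase C genes Plcb1 and Plcb4 rose by 1.64 and 0.82 on the log2 scale, Gnai1, an inhibitory G protein subunit, by 1.19, and Col4a1, a basement membrane collagen chain, by 1.06. The kinase genes Src and Map2k4 rose by 0.63 and 0.59, and Map2k4, which is near the 1.5-fold limit, came under it with TPM scaling and without Ad-GFP 28, Ad-h-NR4A2 27 or Ad-h-NR4A2 29. Col3a1, a fibrillar collagen chain and the single gene called lower, went from 3.64 ± 1.42 to 1.78 ± 0.560 FPKM (SD, n = 6, log2 fold change -0.94, adjusted p = 0.0239, limma). Its call was lost without Ad-GFP 25, Ad-GFP 26 or Ad-GFP 29, where the adjusted p was 0.0502 to 0.0556 (limma) and no gene of the list was called lower. Adcy9 and Col4a2 were not analysed here.

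Of 19 genes of the interleukin-27 pathway other than Il27ra, 11 were tested, and 1 rose and 3 fell, or 36.4% beside 15.2% of all genes. The median log2 fold change was -0.34. Stat3, a transcription factor downstream of gp130, rose from 115 ± 7.94 to 199 ± 12.7 FPKM (SD, n = 6, log2 fold change 0.79, adjusted p = 1.29e-07, limma). Il6r, the interleukin-6 receptor chain that also uses gp130, fell from 5.75 ± 0.426 to 3.48 ± 0.172 FPKM (log2 fold change -0.71, adjusted p = 3.35e-06). The interferon-responsive factor gene Irf1 and the signalling inhibitor gene Socs1 fell by 0.66 and 0.75 on the log2 scale, the second on at most 21 fragments.

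Il6st, whose product gp130 pairs with the Il27ra chain, was at 87.0 ± 14.2 against 59.4 ± 12.6 FPKM (SD, n = 6, log2 fold change -0.56, adjusted p = 0.00467, limma), which is under 1.5-fold. The kinases Jak1, Jak2 and Tyk2 had log2 fold changes of -0.34, -0.34 and -0.41, also under 1.5-fold. Ebi3, which encodes a subunit of interleukin-27, was at 2.06 ± 0.770 against 2.27 ± 0.752 FPKM (SD, n = 6, adjusted p = 0.672). Il27, the gene of the other subunit, and Il23r were not analysed here. The receptor genes Il12rb1 and Il12rb2 had at most 2 and 5 fragments in a sample.

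Since Il27ra is a lymphocyte receptor and Rln3 a neuronal peptide, markers of other cells were read beside them. The summed FPKM of 10 immune markers was 6.04 to 17.3 in Ad-GFP and 37.2 to 44.3 in Ad-h-NR4A2, and nearly all of it was Csf1r, a macrophage growth factor receptor (10.1 ± 3.87 against 40.2 ± 2.35 FPKM, SD, n = 6, log2 fold change 2.06, adjusted p = 2.15e-06, limma). Without Csf1r the sum was 0.249 to 1.05 in Ad-GFP and 0.455 to 1.01 in Ad-h-NR4A2. The T cell and natural killer cell genes Cd3d and Ncr1 were listed at 0 in every sample, and the pan-leukocyte gene Ptprc had at most 6 fragments.

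The sum of 6 neuronal markers was 1.31 to 3.11 in Ad-GFP and 0.642 to 1.09 in Ad-h-NR4A2, most of it from Tubb3, which fell by 1.46 on the log2 scale, and Snap25 was listed at 0 throughout. Nefl was higher in Ad-h-NR4A2, at 0.0584 ± 0.0510 against 0.183 ± 0.0981 FPKM (SD, n = 6). It had at most 14 fragments and was not tested. Syt1, Rbfox3 and Stmn2 had at most 1 fragment in a sample. The 6 cardiomyocyte markers summed to 17688 to 22842 FPKM in Ad-GFP and 15658 to 19261 in Ad-h-NR4A2, with Myh7 and Ryr2 called lower. The 7 fibroblast and smooth muscle markers summed to 13.4 to 32.3 and 9.31 to 30.0, with Myh11 called lower (a call lost without Ad-GFP 28, Ad-h-NR4A2 27 or Ad-h-NR4A2 29) and Col1a2 listed at 0. The 5 endothelial markers, none of them called, summed to 5.47 to 17.1 and 4.39 to 16.2. In bulk samples, fewer cells of a type and less RNA per cell cannot be told apart.

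Relatives of Rfx1 did not share its size of change. Of 9 other genes of RFX proteins and their partners, 6 were tested, and 1 rose and 1 fell, or 33.3% beside 15.2% of all genes. Rfx3, a regulator of cilium genes, rose from 0.740 ± 0.143 to 1.70 ± 0.640 FPKM (SD, n = 6, log2 fold change 1.05 ± 0.21 (SE), adjusted p = 0.00119, limma). Rfx2, its close relative, fell from 1.98 ± 0.148 to 1.27 ± 0.238 FPKM (SD, n = 6, log2 fold change -0.62 ± 0.12 (SE), adjusted p = 0.000938, limma), and it came under 1.5-fold without Ad-h-NR4A2 27, which left 1 called gene.

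The RFX genes of major histocompatibility complex class II control were not called. The log2 fold change was -0.07 for Rfx5 (adjusted p = 0.62 by limma), 0.06 for Rfxap (adjusted p = 0.506) and 0.21 for Rfxank (adjusted p = 0.00411, under 1.5-fold). Rfx7 had -0.32 (adjusted p = 0.00563, under 1.5-fold). Rfx6, a pancreatic factor, had at most 2 fragments and was above 0 in 3 samples, and Rfx4 and Rfx8 were not analysed here.

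Of 20 cilium genes linked to RFX proteins, 16 were tested and 2 were called, or 12.5% beside 15.2% of all genes tested, with a median log2 fold change of -0.03 beside -0.02 for all genes. Mks1, a transition zone gene, rose from 1.36 ± 0.257 to 2.18 ± 0.510 FPKM (SD, n = 6, log2 fold change 0.63, adjusted p = 0.00821, limma). Bbs5, a gene of the BBSome, fell from 5.34 ± 1.18 to 3.46 ± 0.550 FPKM (log2 fold change -0.60, adjusted p = 0.00485). Without Ad-GFP 24, Ad-GFP 28, Ad-h-NR4A2 25 or Ad-h-NR4A2 29 in turn, Bbs5 came under 1.5-fold and 1 gene of the list was called.

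**Figure D4:**
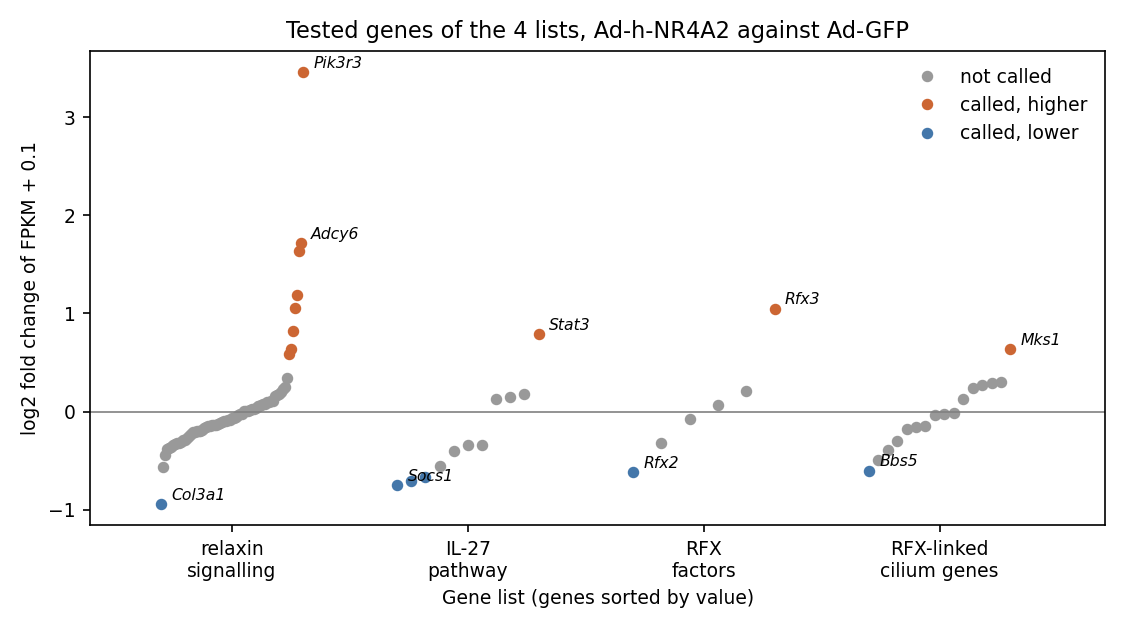
Log2 fold change of FPKM + 0.1 for the tested genes of 4 lists (73 relaxin signalling, 11 interleukin-27 pathway, 6 RFX and 16 cilium genes), sorted within each list, with called genes in colour. Pik3r3 stands at 3.46, and most genes of each list are not called.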

How the data were processed

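Poly(A) RNA libraries of the 12 samples were prepared with a stranded kit and sequenced as paired ends in 1 pool. The deposited tables give FPKM per RefSeq transcript, which the authors made with STAR and Cufflinks on build Rn5. Whether fragments were assigned by strand is not given in the sources used here. Members and lists were chosen with earlier results of these data known. A gene was taken as its transcript with the highest mean FPKM (18752 transcripts, 17301 names). Genes above 0 in all 12 samples (10950) were tested on log2(FPKM + 0.1) with limma 3.58.1 (trend, two-sided, Benjamini-Hochberg) in R 4.3.3, without pairing, as in the study. A call needed an adjusted p below 0.05 and a ratio of means of at least 1.5. Fold changes on this scale are differences of mean log2 values, and the added 0.1 makes those of low genes smaller than without it. The test was checked on simulated data.

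Depth was recovered from FPKM steps: 99.2% to 99.8% of low values (up to 6 fragments, transcripts of 800 bases or more) were whole within 0.05. FPKM of short transcripts such as Rln3 also depend on the effective length Cufflinks used. No 2 samples were identical (highest correlation within a group 0.996). The study describes 6 independent isolations from different rats, and same-numbered samples deviated together (r of 0.347 to 0.623 in 6 pairs), so the numbers were taken as pairs in an alternative fit. p-values measure the spread between these samples. Named genes were the members, all genes within 100 kb of Rln3, called genes to 500 kb, relaxin peptides, RFX factors, called genes of the other lists (at most 10) and the 5 genes most like Rln3. Adcy5, interleukin-27 pathway genes without a call and single cell type markers were named after their values were seen. Alternatives were other pseudocounts and filters, TPM scaling, summed transcripts, quantile normalization (chosen after seeing the data), the sample number as block and leaving out each sample.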

Additional observations from a re-analysis of the deposited data

Results flagged for a closer look

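Of 79 groups of 6 values examined, 5 had a highest sample whose gap to the next exceeded Dixon's 95% critical value for 6 samples. Chance gives about 1 in 20, and 5 of 79 is near that share. The gaps were taken on FPKM and not on log2 values, so the flags apply to that scale only. Rln3 was at 9.18 FPKM in Ad-GFP 28, above 0.147 to 2.19 in the other controls. In Ad-GFP 24, Adgrl1 was at 1.59 FPKM, Rfxap at 18.3 FPKM and Med30 at 23.6 FPKM. In Ad-GFP 29, Dbndd2 was at 8.72 FPKM. Their causes were not tested.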

How the results depend on the processing

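With the sample number as replicate block, 1825 genes were called (936 up, 889 down) in place of 1662, Rxfp1 had a log2 fold change of 0.89 with an adjusted p of 5.67e-06 (limma), and no call of a member changed. Over 20 alternatives the number of called genes ran from 1252 to 1907. The log2 fold change of Rxfp1 kept its direction and its side of the threshold in all 20, from 0.70 to 0.99, with adjusted p from 5.67e-06 to 0.00218 (limma). That of Rln3 ran from 11.54 to 13.46. With a pseudocount of 1, Il27ra stood at 4.78 and Rfx1 at 3.16, since a larger pseudocount pulls low values together. With a mean FPKM of at least 1, 1 gene within 500 kb of Rln3 was called, as fewer genes were tested. Leaving out each sample in turn gave 1 to 2 called RFX genes, 1 to 3 called cilium genes, 8 to 10 relaxin signalling genes, 4 to 5 interleukin-27 pathway genes and 3 to 4 genes near Rln3. No correlation passed adjustment under 3 alternatives, and no block could be fitted for correlations within a group. Scaling moved the median log2 fold change of all genes from -0.02 to -0.04 (TPM or quantile), well under the differences described. For Rxfp2 and Rxfp3, the planned tests and alternatives are not given, because both groups stood at or under the floor of 3 fragments in every sample. At 18800000 to 28000000 fragments, control Rln3 rested on as little as 1 fragment, which limits the precision of its ratio.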
